A study of Mus musculus with 7 samples.

Results

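The keratins of the lower incisor epithelium of newborn mice are described here from RNA counts per gene. Members are the genes whose GRCm38 symbol is Krt followed by a number and at most one letter, with at least 10 counts in 2 or more of the 7 libraries. Of the 54 keratin genes in the count files, out of 25700 genes in all, 30 met this rule. They comprise 14 type I and 16 type II keratins.

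Keratins are the intermediate filaments of epithelial cells. Each filament is built from pairs of 1 acidic type I chain and 1 basic or neutral type II chain, so the types are made together, and each epithelium has its own characteristic pairs. In the tooth the enamel organ derives from oral ectoderm and keeps the basal pair Krt5 and Krt14, while the type I keratin genes lie in a cluster on chromosome 11 and the type II genes, with the type I gene Krt18, in a cluster on chromosome 15.

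The libraries came from pups at PN0, the day of birth, and each holds the Dispase-separated epithelium of the left and right lower incisors of 1 pup, taken posteriorly. Of the 7 pups, 4 were K14;Nogo-A (K14cre cre/+; Nogo-A fl/fl; replicates 1, 2, 7 and 10) and 3 were labelled wt (wild-type, replicates 3, 8 and 9). In K14;Nogo-A the Cre recombinase is driven by the promoter of KRT14, the gene of a keratin described here, and removes the Nogo-A form of Rtn4 where that promoter is active. The study counts 1 more wild-type animal, which was not analysed here, and the labels do not say whether wild-type pups carried Cre or the floxed allele.

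The K14;Nogo-A libraries held 20929207 to 29728532 counts. Wild-type replicates 3 and 8 were deeper, at 41219439 and 38734443, and wild-type replicate 9 held 21021158. Rtn4 had 297, 344, 328 and 340 CPM (counts per 1000000 on TMM-scaled library sizes) in K14;Nogo-A replicates 1, 2, 7 and 10, against 281, 277 and 346 in wild-type replicates 3, 8 and 9. Nogo-B and Nogo-C transcripts are part of that count, so it does not check the genotypes. Averaged over 4 Y-linked genes, log2 CPM was 5.27 in K14;Nogo-A replicate 1, against 5.13 and 4.94 in wild-type replicates 3 and 8, and lay between -3.71 and -3.04 in the other 4 libraries. All 12 listed epithelium markers, among them Epcam and Cdh1, were expressed, at an average log2 CPM of 6.30 to 6.54 for K14;Nogo-A and 6.10 to 6.41 for wild-type. Mesenchyme was present too, and its 20 markers averaged 7.57 to 7.80 in K14;Nogo-A, against 8.22 to 8.37 in wild-type, with no overlap. Of 21 markers of cornified skin or oral keratinocytes, 8 stayed under 10 counts in every library, and Ivl, Lce1a1 and Sprr2a1 were at 0 in all 7. Others of the same list were expressed in every library, among them Dsg1a at 38.0 to 59.0 CPM, Lgals7 at 28.6 to 49.8 and Dmkn at 25.5 to 50.7. In bulk tissue, fewer cells of a type and less RNA per cell cannot be told apart.

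Members were kept by a count threshold, and the genes nearest to it show how thin the edge was. Krt71 (51 counts in K14;Nogo-A replicate 2, 10 in K14;Nogo-A replicate 10 and 11 in wild-type replicate 8, with 1 to 6 in the other libraries) and Krt4 (4 to 31 counts) were just inside. Krt25 was just outside, with 37 counts in K14;Nogo-A replicate 2 and 0 to 5 in the other 6 libraries, as were Krt23 (2 to 10 counts) and Krt72 (1 to 11 counts). All 30 members also passed the filter used for the test between genotypes, and 19 of them had a mean count of at least 50.

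A very small set of genes made up nearly all keratin RNA. To compare genes, the level of each was expressed as CPM per kb of annotated exon length (below, the level). Krt5 stood at a level of 1425 ± 262 (SD, n = 7 libraries) and Krt14, its partner in the basal layer of stratified epithelia, at 1279 ± 260. Krt17, a type I keratin of skin appendages and of wounded epidermis, followed at 559 ± 145. These 3 genes left only 5.92% to 6.10% of the summed keratin level for the other 27 members in K14;Nogo-A, against 5.78% to 6.92% in wild-type. The whole family took 0.678% to 0.750% of all counts in K14;Nogo-A, against 0.481% to 0.759% in wild-type.

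**Figure D1:**
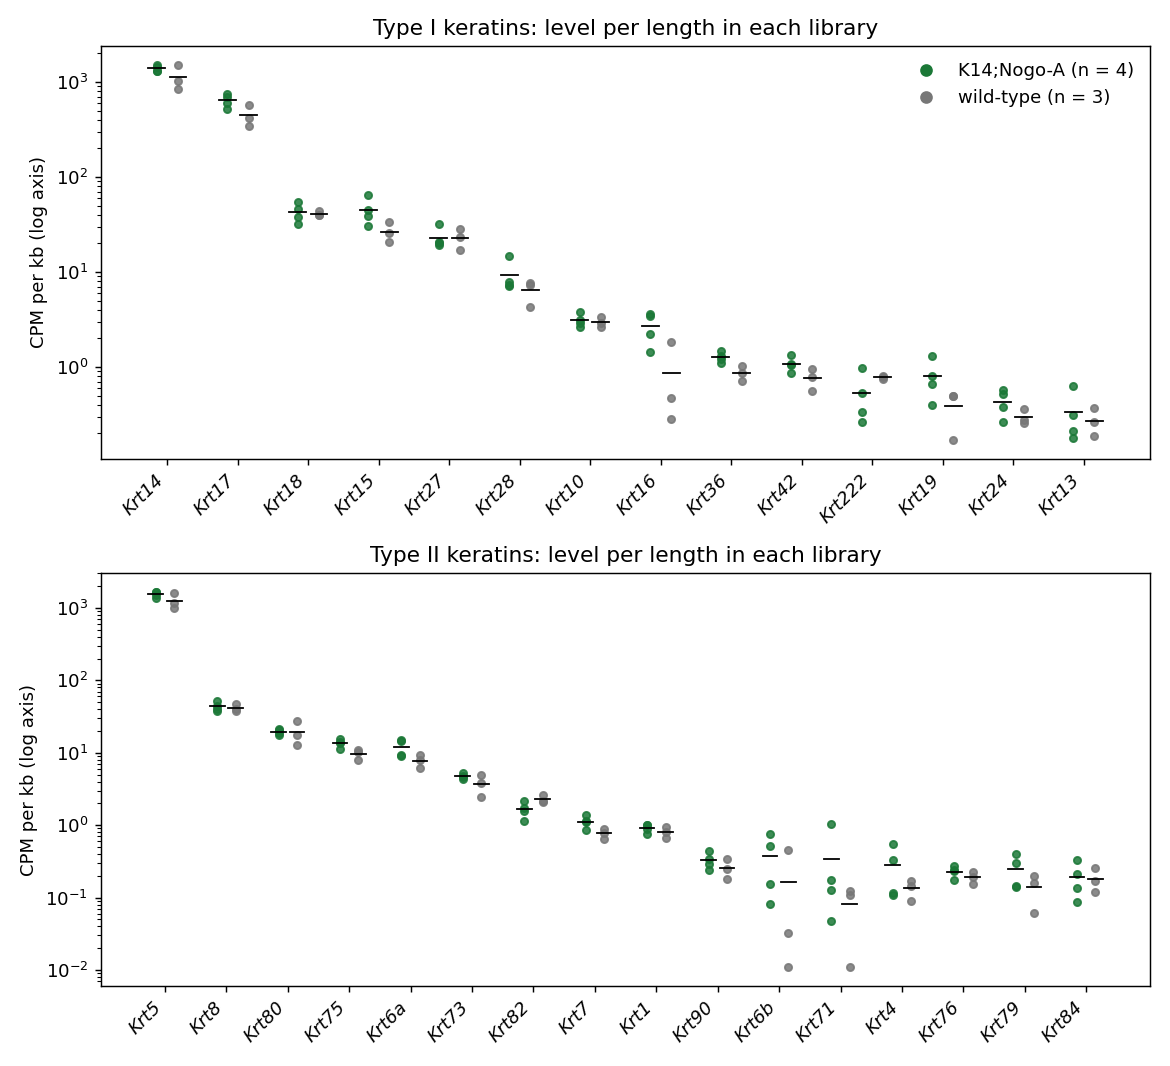
Level of each of the 30 keratins as CPM per kb (log axis) in every library, with type I keratins in the upper panel and type II in the lower, ordered by mean level. Points are libraries of K14;Nogo-A (green, n = 4) and wild-type (grey, n = 3), and short lines are group means. Krt14, Krt17 and Krt5 stand far above all other keratins, and Krt16, Krt6b and Krt71 spread widely between libraries.

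Among type I keratins, the order after Krt14 and Krt17 was Krt18 at a level of 41.9 ± 7.18, Krt15 at 36.9 ± 14.5, Krt27 at 23.0 ± 5.36 and Krt28 at 8.05 ± 3.22 (SD, n = 7). Krt18 and Krt15 overlapped in range, with Krt18 the higher in 6 of 7 libraries, and so did Krt15 and Krt27, with Krt15 the higher in 6 of 7. The ranges of Krt14 and Krt17, of Krt17 and Krt18, of Krt27 and Krt28, and of Krt28 and the next gene, Krt10 (3.03 ± 0.421), did not overlap over the 7 libraries.

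Among type II keratins, Krt5 was followed by Krt8 at a level of 42.8 ± 5.20, Krt80 at 19.4 ± 4.53, Krt75 at 11.9 ± 2.55, Krt6a at 10.2 ± 3.36 and Krt73 at 4.30 ± 0.941 (SD, n = 7). Krt5 was thus 33.3 times the next type II gene, whereas type I had a second abundant gene in Krt17. Krt80 with Krt75 and Krt75 with Krt6a overlapped in range. The ranges of Krt5 and Krt8, of Krt8 and Krt80, and of Krt6a and Krt73 did not. The place of Krt80 depends on the length used: on its longest transcript its level was 31.7 ± 7.40, with a range of 20.9 to 45.2 that overlapped Krt8 (37.8 to 51.8) and not Krt75 (7.97 to 15.4). Below these the levels ran together: 14 of the 30 members had a mean level under 1 on exon length, the lowest being Krt84 at 0.187.

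The summed type I level exceeded the summed type II level in every library. The type II to type I ratio was 0.749, 0.741, 0.768 and 0.784 in K14;Nogo-A replicates 1, 2, 7 and 10, against 0.810, 0.836 and 0.775 in wild-type replicates 3, 8 and 9. Within the basal pair, Krt5 to Krt14 ranged from 1.05 to 1.16 in K14;Nogo-A, against 1.06 to 1.18 in wild-type. For Krt8 and Krt18, the partners of simple epithelia, the ratio was 0.889 to 1.20 in K14;Nogo-A, against 0.960 to 1.08 in wild-type. Krt17 held 26.7% to 34.2% of the type I level in K14;Nogo-A, against 25.9% to 27.3% in wild-type, and the highest shares were those of K14;Nogo-A replicates 2 and 7. These sums and ratios are descriptions and were not tested.

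The keratin genes without counts lay partly in a block. Of 15 keratins of hair, nail and tongue papillae in the files, 3 were members (Krt36, Krt82 and Krt84) and 6 had no count in any library. Krt40, Krt33a, Krt33b, Krt34, Krt31 and Krt32, which are consecutive keratin genes on chromosome 11, were all at 0, whereas Krt36, further along the same cluster, had 36 to 63 counts in every library. The epidermal gene Krt2 and the corneal gene Krt12 were also at 0 in all 7 libraries. A count of 0 allows up to 3 counts, which in the smallest library is 0.143 counts per 1000000, and this limit covers counting error only. Whether reads from these genes would also match other genes was not checked.

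**Figure D2:**
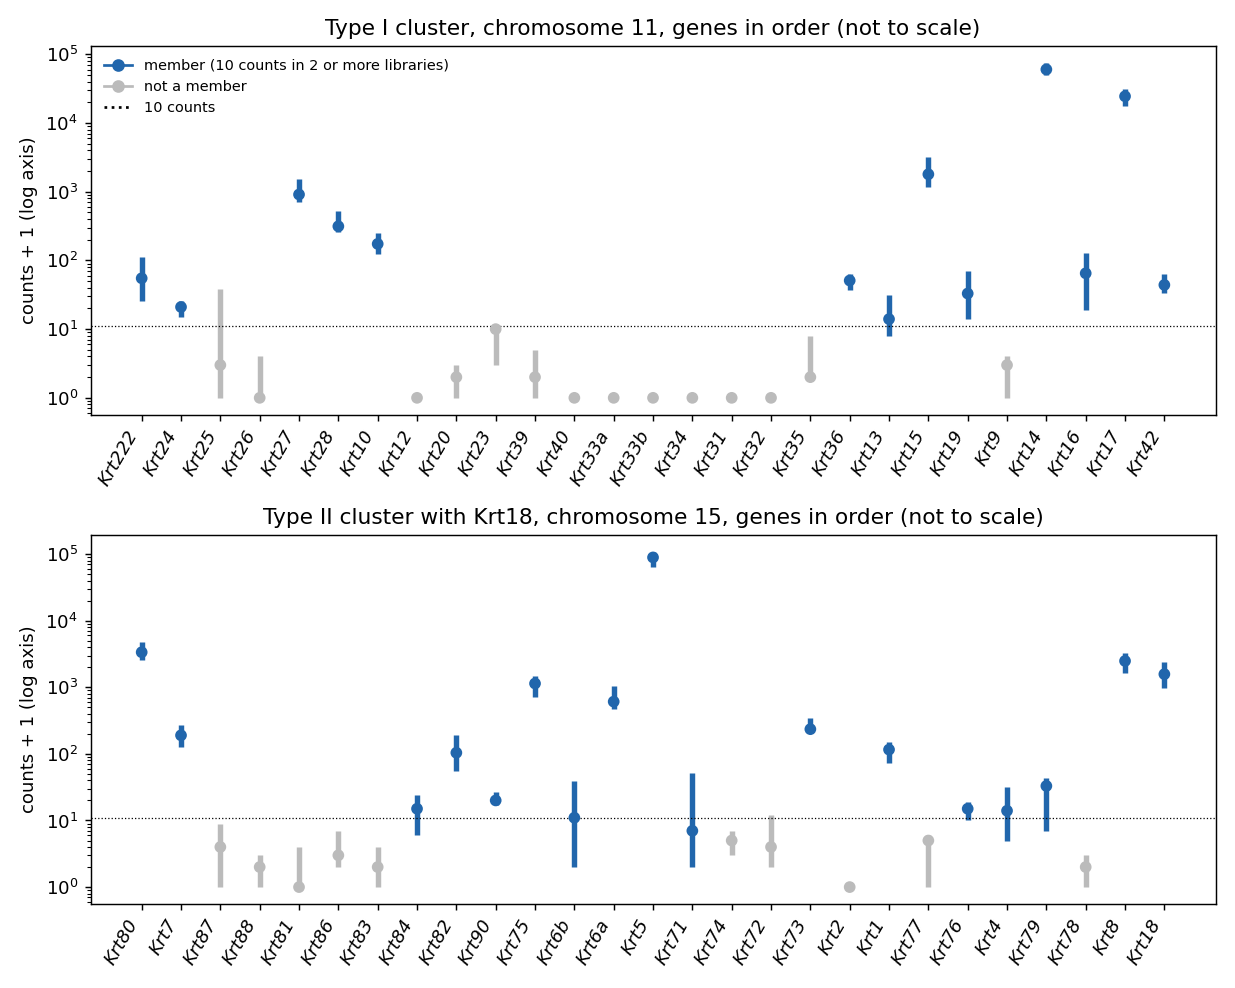
Counts plus 1 (log axis) of the 54 keratin genes in their order along chromosome 11 (upper panel) and chromosome 15 (lower panel), not to scale. Points are medians and bars the range over the 7 libraries, blue for members and grey for other genes, with a dotted line at 10 counts. Krt40, Krt33a, Krt33b, Krt34, Krt31 and Krt32 form a block at 0, while Krt27 and Krt28 lie beside Krt25 and Krt26, which had few counts.

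Keratins of the inner root sheath, the layer that moulds the growing hair, formed an incomplete set. Of 8 such genes in the files 4 were members. Krt27 had 49.7, 30.9, 29.9 and 32.1 CPM in K14;Nogo-A replicates 1, 2, 7 and 10, against 36.2, 26.5 and 43.8 in wild-type replicates 3, 8 and 9. Krt28 had 24.0, 12.7, 11.6 and 11.9 CPM in K14;Nogo-A replicates 1, 2, 7 and 10, against 11.9, 6.92 and 12.4 in wild-type replicates 3, 8 and 9. Both were thus highest in K14;Nogo-A replicate 1, and the genotypes overlapped. The ratio of their levels, Krt28 to Krt27, did not overlap: it was 0.462, 0.393, 0.370 and 0.355 in K14;Nogo-A replicates 1, 2, 7 and 10, against 0.313, 0.250 and 0.271 in wild-type replicates 3, 8 and 9. It was picked from several gene-to-gene ratios after its values were seen and not tested. The ratio of Krt82 to Krt27 did not overlap either, being lower in K14;Nogo-A at 0.0567 to 0.0882, against 0.0919 to 0.121 in wild-type. Both ratios are taken to Krt27, so they are not separate observations. Of all single genes, 5.43% were higher with no overlap and 6.09% lower, but no such share was computed for ratios of genes. The log2 fold change of K14;Nogo-A over wild-type (below, the log2 ratio) from edgeR's quasi-likelihood fit was 0.01 (standard error, SE, 0.21) for Krt27 and 0.54 (SE 0.30) for Krt28. The p of this test, adjusted by the Benjamini-Hochberg method over the 14791 genes tested, was 0.470 for Krt28. Krt73, a type II gene of the same layer, was more even, at 9.92, 10.3, 9.42 and 11.4 CPM in K14;Nogo-A, against 8.35, 5.24 and 10.5 CPM in wild-type, a log2 ratio of 0.37 (SE 0.21). Their relatives were hardly read: Krt26 had 0 to 3 counts and Krt72 had 1 to 11. Krt71, the fourth member, had 2.25 CPM in K14;Nogo-A replicate 2 and at most 0.381 CPM in any other library, and Krt25 was also high in that library alone.

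The stretch just before the start site is shown for the inner root sheath members and for Krt5, the most abundant keratin. TATAAA, the core of the TATA box, stands close to the start in the root sheath genes. Krt5 lacks those exact letters in this stretch but carries the near match GATAAA close to its start. Near matches were not sought in any gene. The sequences are the 130 bases before the start, 5′ to 3′ on the gene strand, from RefSeq on GRCm38.p6. Each is on the minus strand, and capitals mark TATAAA.
Krt28, chr11:99374904-99375033: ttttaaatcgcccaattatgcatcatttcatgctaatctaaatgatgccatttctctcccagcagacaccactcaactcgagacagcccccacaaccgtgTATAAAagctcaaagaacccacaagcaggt
Krt27, chr11:99351119-99351248: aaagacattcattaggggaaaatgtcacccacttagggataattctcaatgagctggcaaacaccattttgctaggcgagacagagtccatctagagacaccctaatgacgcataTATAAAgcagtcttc
Krt73, chr15:101802361-101802490: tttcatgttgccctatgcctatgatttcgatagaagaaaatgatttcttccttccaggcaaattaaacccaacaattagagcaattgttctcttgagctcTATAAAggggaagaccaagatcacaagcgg
Krt71, chr15:101743098-101743227: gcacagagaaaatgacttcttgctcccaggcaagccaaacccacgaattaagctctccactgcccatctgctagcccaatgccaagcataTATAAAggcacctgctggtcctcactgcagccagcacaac
Krt5, chr15:101712906-101713035: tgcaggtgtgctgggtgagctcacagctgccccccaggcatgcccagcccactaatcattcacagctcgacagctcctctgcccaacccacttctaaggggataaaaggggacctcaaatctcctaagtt

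A promoter matched for 20 of the 30 members. TATAAA lay between 40 and 20 bases before the start on the gene strand in 5 of these 20 (25%: Krt10, Krt28, Krt71, Krt73 and Krt76), against 608 of 27025 genes with a promoter (2.25%). In Krt27 it began 15 bases before the start. On either strand of the whole window, from 250 bases before to 50 after the start, TATAAA was present in 9 of 20 members (45%) and in 15.7% of all genes, GCCNNNGGC, the AP-2 motif, in 4 of 20 (20%) and in 18.6%, and TGANTCA, the AP-1 motif, in 1 of 20 (5%) and in 9.0%. A match says only that these letters are there.

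The comparison of K14;Nogo-A with wild-type asks whether removing Nogo-A from the epithelium goes with a different keratin set. No keratin rose or fell: by edgeR's quasi-likelihood test none of 30 had an adjusted p under 0.05, where 0.0338% of the 14791 genes tested did, all of them lower. The smallest adjusted p of a member was 0.219, for Krt75. At an unadjusted p under 0.05 the same test gave 8 members higher and 0 lower, where it gave 6.25% of all genes higher and 6.66% lower. By the likelihood-ratio test and by limma-voom 0 members passed an adjusted p of 0.05, and by DESeq2 2 did (Krt15 and Krt75). DESeq2 called more genes everywhere: of the 14791 genes 132 were higher and 156 lower at that adjusted p. By the likelihood-ratio test 89 were higher and 129 lower, and by limma-voom 0 and 4.

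At the study's own thresholds (unadjusted P up to 0.05 with a log2 ratio of 0.5 or more in size), 7 of 30 keratins were higher in K14;Nogo-A and 0 were lower, where 2.02% of all genes tested were higher and 2.74% lower. They were Krt17, Krt15, Krt6a, Krt16, Krt7, Krt19 and Krt36. Over the family the median log2 ratio was 0.44 (0.53 in type I and 0.38 in type II), with 28 positive and 2 negative values, against a median of -0.0069 and 48.5% positive over all genes tested. Only Krt36 and Krt75 had genotypes that did not overlap, both higher in K14;Nogo-A, where 5.43% of all genes were higher with no overlap and 6.09% lower. Members are not independent of one another, since they come from the same cells and libraries.

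**Figure D3:**
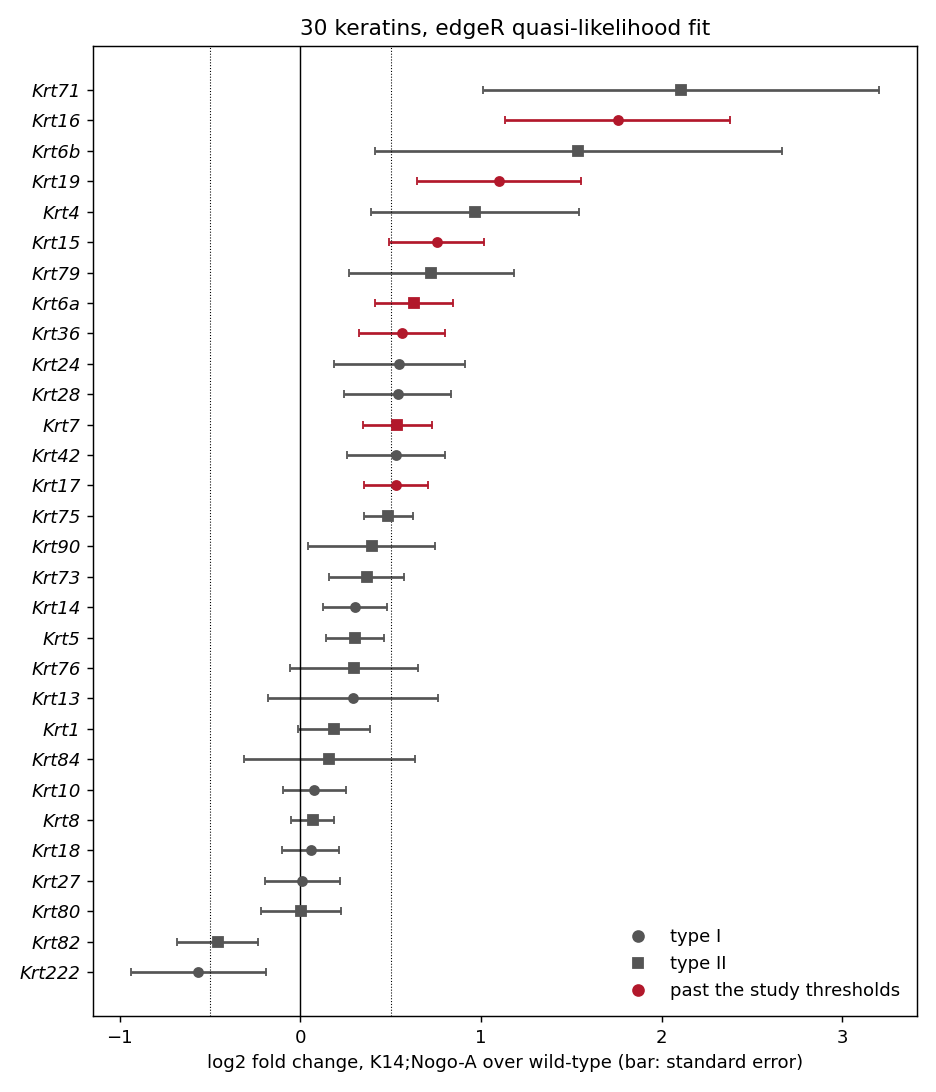
Log2 fold change of K14;Nogo-A over wild-type for the 30 keratins with its standard error (horizontal axis), ordered by size, circles for type I and squares for type II. Red marks the 7 past the study's thresholds, and dotted lines stand at -0.5 and 0.5. Only Krt222 and Krt82 lie below 0, and the bars of Krt71, Krt6b and Krt16 are the widest.

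The basal keratins came first by abundance. Krt5 lies on chromosome 15 (GRCm38, 101707070-101712898) and Krt14 on chromosome 11 (100203162-100207548), both on the minus strand. Krt5 had 2993, 3360, 3621 and 3648 CPM in K14;Nogo-A replicates 1, 2, 7 and 10, against 2570, 2171 and 3545 in wild-type replicates 3, 8 and 9, a log2 ratio of 0.30 (SE 0.16, adjusted p = 0.446). Krt14 had 2276, 2319, 2529 and 2669 CPM in K14;Nogo-A, against 1803, 1468 and 2677 in wild-type, a log2 ratio of 0.30 (SE 0.18, adjusted p = 0.490). Wild-type replicate 9 lay within or above the K14;Nogo-A range in this pair, and wild-type replicates 3 and 8 lay below it. Krt15, a basal keratin also known from hair follicle stem cells, had 53.4, 79.4, 113 and 69.5 CPM in K14;Nogo-A, against 45.6, 36.1 and 59.0 in wild-type. Its log2 ratio was 0.75 (SE 0.26, adjusted p = 0.301; by an exact two-sided permutation test, p = 0.086), and only K14;Nogo-A replicate 1 overlapped wild-type, through wild-type replicate 9.

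Of the keratins of appendages and activated keratinocytes, 3 of 7 were higher at the study's thresholds, where 2.02% of all genes were. Among keratins of simple epithelia 2 of 4 tested were, and among basal and among hard keratins 1 of 3 each. In the epidermal, moist epithelium and inner root sheath groups 0 were. Krt17 had 804, 1167, 1089 and 935 CPM in K14;Nogo-A replicates 1, 2, 7 and 10, against 648, 539 and 890 in wild-type replicates 3, 8 and 9. This was a log2 ratio of 0.53 (SE 0.18, adjusted p = 0.278), and wild-type replicate 9 lay above K14;Nogo-A replicate 1. Krt6a, induced in wounded epidermis and made in the companion layer of the hair follicle, had 21.9, 35.4, 36.2 and 22.3 CPM in K14;Nogo-A, against 19.1, 14.8 and 22.5 in wild-type. Its log2 ratio was 0.63 (SE 0.22, adjusted p = 0.286), and wild-type replicate 9 lay above K14;Nogo-A replicates 1 and 10. The count of Krt6a is uncertain, since 34.6% of its read-length stretches occur in other transcripts and the antisense gene Gm49428 overlaps 19.5% of its exon length.

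Krt16, the usual type I partner of Krt6, had the largest log2 ratio of the 7, 1.76 (SE 0.63, adjusted p = 0.304). It had 5.40, 5.70, 2.23 and 3.47 CPM in K14;Nogo-A replicates 1, 2, 7 and 10, against 0.740, 0.438 and 2.88 in wild-type replicates 3, 8 and 9. It was low throughout, with 117, 129, 64 and 91 counts in K14;Nogo-A, against 31, 18 and 60 in wild-type, and wild-type replicate 9 lay above K14;Nogo-A replicate 7. Of the read-length stretches of its transcripts, 20.5% also occur in Krt14 or Gm11597, so the count of Krt16 is uncertain. The level ratio of Krt16 to Krt14 ranged from 0.000991 to 0.00276 in K14;Nogo-A, against 0.000335 to 0.00121 in wild-type.

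Krt75, a type II keratin of the companion layer whose human gene has been linked to enamel structure, had 37.2, 50.3, 46.2 and 43.9 CPM in K14;Nogo-A, against 35.1, 26.0 and 34.0 in wild-type. The genotypes did not overlap. Its log2 ratio of 0.49 (SE 0.13, adjusted p = 0.219; by an exact two-sided permutation test, p = 0.057) was just short of the study's fold threshold. Krt6b, which shares 24.5% of its read-length stretches with Krt6a and other near copies, had 4, 38, 10 and 30 counts in K14;Nogo-A, against 3, 1 and 21 in wild-type, with wide overlap. Krt42, a keratin of mouse skin appendages, had 1.52, 1.90, 1.85 and 2.36 CPM in K14;Nogo-A, against 1.38, 0.974 and 1.68 in wild-type, a log2 ratio of 0.53 (SE 0.27, adjusted p = 0.435). Wild-type replicate 9 lay above K14;Nogo-A replicate 1 there.

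**Figure D4:**
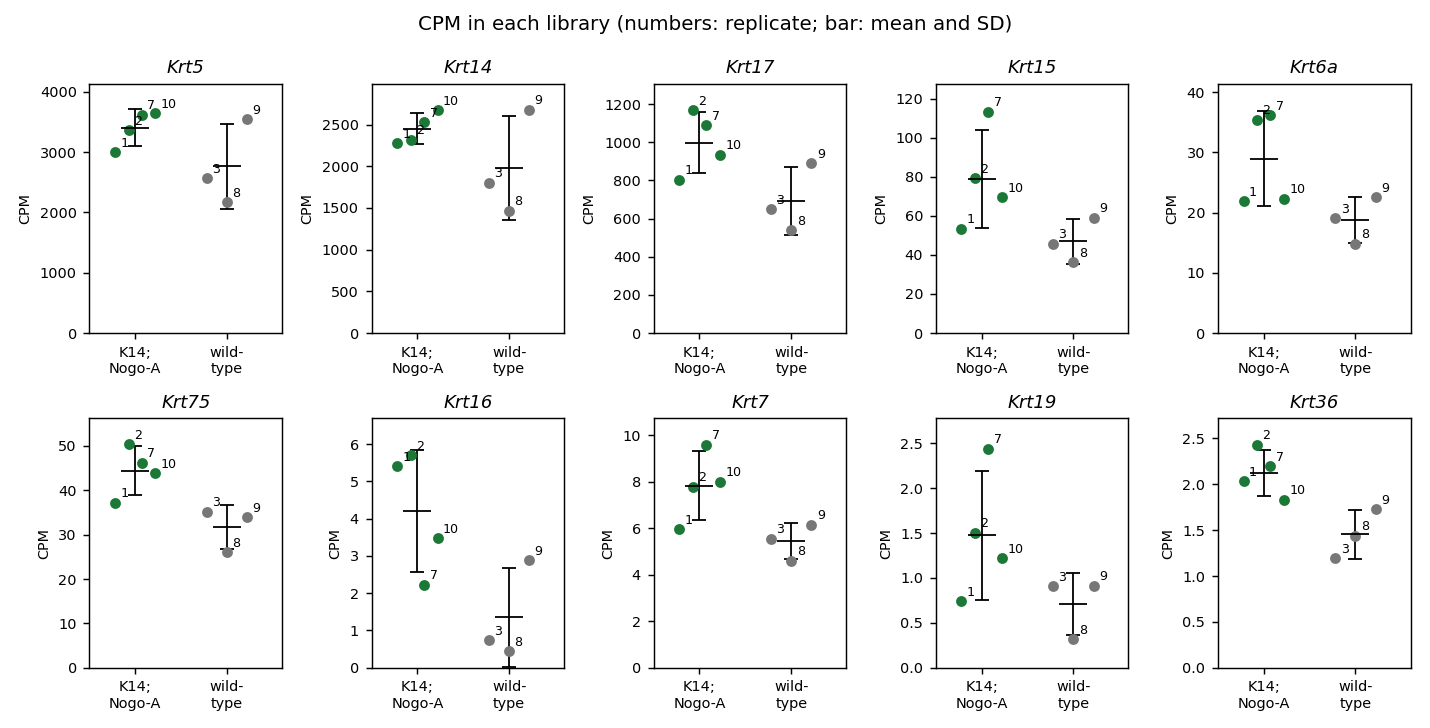
CPM of 10 keratins (vertical axes, from 0) in each library, K14;Nogo-A in green and wild-type in grey, with replicate numbers beside the points and the mean and SD as bars. Wild-type replicate 9 is the highest or the middle wild-type library in every panel and reaches the K14;Nogo-A range in all but Krt75 and Krt36.

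Among keratins of simple epithelia, Krt8 and Krt18 were close between genotypes, while Krt7 and Krt19 were past the study's thresholds. Krt8 had 74.4, 79.6, 86.6 and 101 CPM in K14;Nogo-A replicates 1, 2, 7 and 10, against 74.1, 78.5 and 92.5 in wild-type replicates 3, 8 and 9, a log2 ratio of 0.07 (SE 0.12). Krt18 had 45.6, 65.7, 54.9 and 78.6 CPM in K14;Nogo-A, against 56.6, 57.3 and 62.7 in wild-type, a log2 ratio of 0.06 (SE 0.16). Both lay near 0 with overlapping genotypes, and 12.1% of the stretches of Krt8 are shared with the pseudogene Krt8-ps. Krt7, found in glandular and ductal epithelia, had 5.95, 7.78, 9.59 and 8.01 CPM in K14;Nogo-A, against 5.56, 4.60 and 6.15 in wild-type, a log2 ratio of 0.54 (SE 0.19, adjusted p = 0.291). Only K14;Nogo-A replicate 1 lay below a wild-type library, replicate 9. Krt19 had 0.739, 1.50, 2.44 and 1.22 CPM in K14;Nogo-A, against 0.907, 0.317 and 0.913 in wild-type. Its log2 ratio of 1.10 (SE 0.46, adjusted p = 0.345) rested on 13 to 70 counts a library, and K14;Nogo-A replicate 1 lay within the wild-type range.

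Of the keratins of cornifying epidermis, 3 were members and 0 were past the study's thresholds. Krt10, a suprabasal keratin of skin, had 7.99, 5.52, 6.17 and 6.52 CPM in K14;Nogo-A replicates 1, 2, 7 and 10, against 5.51, 6.06 and 7.11 in wild-type replicates 3, 8 and 9. Krt1, its partner, had 3.32, 3.89, 4.50 and 4.39 CPM in K14;Nogo-A, against 3.58, 2.95 and 4.18 in wild-type. The log2 ratios were 0.08 (SE 0.18) and 0.19 (SE 0.20). Krt80, a type II keratin of differentiating epithelial cells, was the third type II member by level on exon length, though its mean CPM was above that of Krt8. It had 118, 130, 113 and 135 CPM in K14;Nogo-A, against 114, 81.8 and 177 in wild-type, and a log2 ratio of 0.0033 (SE 0.22). Antisense genes overlap 6.91% of the exon length of Krt10 and 4.11% of that of Krt80. The 21 cornified keratinocyte markers averaged a log2 CPM of -1.23 to -0.64 over the K14;Nogo-A libraries, against -1.16 to -1.10 over wild-type, with 8 markers under 10 counts everywhere included. Of the 12 that were tested, 9 had positive log2 ratios, where 48.5% of all genes did, and the median was 0.37. At an unadjusted p under 0.05 by edgeR's quasi-likelihood test 3 were higher and 0 lower, where 6.25% and 6.66% of all genes were. At the study's thresholds 1 was higher (Dmkn, log2 ratio 0.66), where 2.02% of all genes were. Without overlap of the genotypes 1 was higher in K14;Nogo-A, where 5.43% of all genes were. The keratins of moist stratified epithelia, Krt4, Krt13, Krt24 and Krt76, had at most 1.18 CPM in any library.

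Of the hard keratins, Krt36 was the one with no overlap. It had 2.03, 2.43, 2.20 and 1.83 CPM in K14;Nogo-A replicates 1, 2, 7 and 10, against 1.19, 1.44 and 1.73 in wild-type replicates 3, 8 and 9. This gave a log2 ratio of 0.56 (SE 0.24, adjusted p = 0.358) and the smallest p that an exact two-sided permutation test of 4 against 3 can give, 0.029. Krt82, a keratin of the hair cuticle, had 4.57, 2.39, 3.59 and 3.36 CPM in K14;Nogo-A, against 4.56, 4.36 and 5.48 in wild-type. It was 1 of the 2 members with a negative value, -0.46 (SE 0.22, adjusted p = 0.417). The other was Krt222, with 3.23, 1.10, 0.872 and 1.75 CPM in K14;Nogo-A, against 2.62, 2.44 and 2.59 in wild-type, at -0.57 (SE 0.37, adjusted p = 0.547). K14;Nogo-A replicate 1 was the highest library in Krt222 and lay inside the wild-type range in Krt82.

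The keratin values moved with a few libraries. Wild-type replicate 8 was the lowest of all libraries in 16 of 30 members, and wild-type replicate 9 the highest wild-type library in 24. Without wild-type replicate 8, 0 keratins were past the study's thresholds, where 0.974% of all genes were higher. Without wild-type replicate 9, 13 were higher, where 3.57% of all genes were, with Krt16 at an adjusted p of 0.040 by edgeR's quasi-likelihood test. The share of all genes thus shifted in the same direction as the keratin count, relative to 2.02% with all libraries. Without wild-type replicate 3 there were 4 keratins (all genes, 1.97%), without K14;Nogo-A replicate 2 also 4 (1.53%) and without K14;Nogo-A replicate 7 there were 5 (1.62%). Without K14;Nogo-A replicate 1, 10 were higher (3.07%) and 2, Krt222 and Krt82, lower (3.69%). Each of the 7 lost its place past the thresholds when at least 1 library was left out.

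With Y-linked genes high, only K14;Nogo-A replicate 1 and wild-type replicates 3 and 8 could be set side by side, and with them low, K14;Nogo-A replicates 2, 7 and 10 and wild-type replicate 9. The difference of mean log2 CPM, K14;Nogo-A minus wild-type, was 0.34 in the first and -0.0017 in the second for Krt5, 0.48 and -0.10 for Krt14, 0.44 and 0.25 for Krt17, 0.39 and 0.53 for Krt15, and 3.09 and 0.29 for Krt16. The 7 keratins past the thresholds were positive in both, but they were picked as higher in these same libraries, so their sign is no independent support. Other members went both ways: Krt75 had 0.30 and 0.46, but Krt27 had 0.68 and -0.50 and Krt80 had 0.29 and -0.49. In a fit that took the mean of the Y-linked genes as covariate, 1 keratin (Krt16) was past the study's thresholds, where 1.37% of all genes were higher. Each split has a single library on one side, so these differences have no test.

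The summed keratin level is set beside the epithelium markers here. It was 3382, 3833, 4027 and 4020 in K14;Nogo-A replicates 1, 2, 7 and 10, against 2799, 2332 and 3938 in wild-type replicates 3, 8 and 9, and the mean log2 CPM of the 12 markers was 6.30, 6.53, 6.52 and 6.54 in K14;Nogo-A, against 6.31, 6.10 and 6.41 in wild-type. Wild-type replicate 8 was the lowest in both measures. Ameloblast markers averaged a log2 CPM of 8.54 to 9.78 over K14;Nogo-A libraries, against 8.08 to 8.73 over wild-type. Of the 12 epithelium markers, 10 had positive log2 ratios themselves, where 48.5% of all genes did. At the study's thresholds 2 of them, Cldn4 and Esrp2, were higher and 0 lower, where 2.02% and 2.74% of all genes were. With the epithelium markers as a covariate, an alternative chosen after the data were seen, 0 keratins were past the study's thresholds, where 0.967% of all genes were higher. In that fit Krt5 and Krt14 had log2 ratios of -0.0098 and -0.0053. The mean of the mesenchyme markers, given above, did not overlap between genotypes. The part of tissue composition in the keratin differences was not tested beyond these fits.

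**Figure D5:**
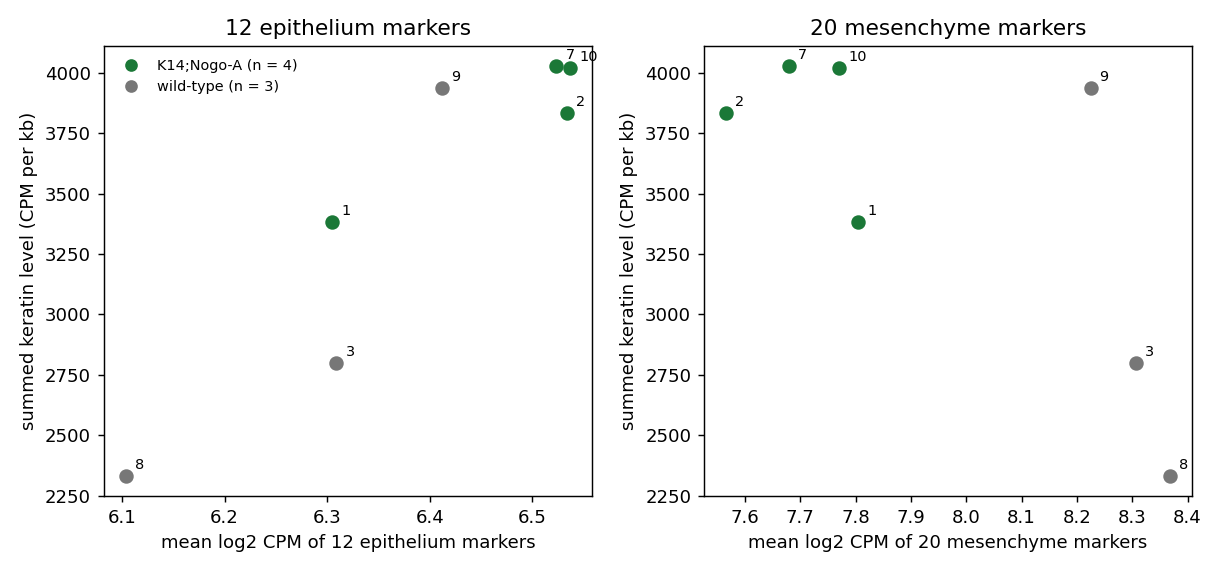
Summed level of the 30 keratins in CPM per kb (vertical axis) against the mean log2 CPM of 12 epithelium markers (left) and of 20 mesenchyme markers (right) in each library, numbered by replicate, with K14;Nogo-A in green and wild-type in grey. Wild-type replicate 8 is lowest in keratin and epithelium markers and highest in mesenchyme markers, and wild-type replicate 9 reaches the keratin sums of K14;Nogo-A.

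Among genes of proteins that bind or organise keratin filaments, 1 passed the study's thresholds. Of 17 tested, 1 was higher and 0 were lower at the study's thresholds, where 4.77% of all genes passed in either direction. Their median log2 ratio was 0.22, with 13 positive values, and at an unadjusted p under 0.05 4 were higher and 0 lower, where 6.25% of all genes were higher and 6.66% lower. Sfn, the 14-3-3 protein that binds keratins in stratified epithelia, had 217, 236, 226 and 179 CPM in K14;Nogo-A replicates 1, 2, 7 and 10, against 145, 113 and 184 in wild-type replicates 3, 8 and 9, a log2 ratio of 0.54 (SE 0.16, adjusted p = 0.229). Wild-type replicate 9 lay above K14;Nogo-A replicate 10. Pkp3, a plakophilin of desmosomes, had 118, 119, 122 and 129 CPM in K14;Nogo-A, against 95.3, 81.2 and 119 in wild-type, a log2 ratio of 0.31 (SE 0.12, adjusted p = 0.303). Dsp, the desmoplakin that ties keratin to desmosomes, averaged 616 ± 115 CPM over 4 K14;Nogo-A and 582 ± 111 over 3 wild-type libraries (SD), a log2 ratio of 0.08 (SE 0.17).

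Most other intermediate filament genes had negative values. Of 10 tested, 0 were higher and 2 lower by those thresholds, where 2.74% of all genes were lower. Negative log2 ratios were found in 9 of the 10, where 51.5% of all genes had one, and the median was -0.36. Nes, the gene of nestin, found in neural and mesenchymal progenitors, had 153, 98.0, 104 and 105 CPM in K14;Nogo-A, against 202, 174 and 165 in wild-type. Its log2 ratio was -0.65 (SE 0.15, adjusted p = 0.184), with no overlap. Bfsp1, a filament gene of the eye lens, had -0.57 (SE 0.19, adjusted p = 0.278) at 2.56 to 3.49 CPM in K14;Nogo-A, against 4.32 to 5.49 in wild-type. Vim, the vimentin of mesenchymal cells, had 686, 419, 476 and 583 CPM in K14;Nogo-A, against 799, 730 and 751 in wild-type, and a log2 ratio of -0.49 (SE 0.15, adjusted p = 0.245). Of the 10 genes, 4 were lower with no overlap, these 3 and Lmnb1, where 6.09% of all genes were. Lmnb1 had 300 to 311 CPM in K14;Nogo-A, against 319 to 323 in wild-type, a log2 ratio of -0.08 (SE 0.08). The mean of the mesenchyme markers did not overlap either, and singly 9 of the 20 markers were lower with no overlap. With that mean as a covariate, in a fit that extrapolates, the log2 ratios were 0.40 for Nes, 0.12 for Bfsp1 and 0.76 for Vim. The part of mesenchyme in these values was not tested beyond that fit.

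Of 14 tested transcription factors known for acting on keratin genes, 0 were past the study's thresholds. At an unadjusted p under 0.05, by edgeR's quasi-likelihood test, 2 were higher and 1 was lower, where 6.25% of all genes were higher and 6.66% lower. Lef1, the Wnt effector that also acts in hair keratin genes, had 19.8, 24.1, 20.3 and 17.6 CPM in K14;Nogo-A, against 23.2, 29.3 and 30.4 in wild-type, a log2 ratio of -0.43 (SE 0.14, adjusted p = 0.252). Cebpa, a factor of differentiating keratinocytes, had 6.60, 8.18, 9.07 and 6.37 CPM in K14;Nogo-A, against 4.91, 5.46 and 6.53 in wild-type, a log2 ratio of 0.43 (SE 0.18, adjusted p = 0.356). Trp63, the master regulator of stratified epithelia, was at 407 CPM in K14;Nogo-A, against 371 in wild-type on average, a log2 ratio of 0.14 (SE 0.11).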

How the data were processed

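Poly(A) RNA of 7 newborn lower incisor epithelia was sequenced. The authors deposited 1 file of unnormalized counts per library, with a value for each Ensembl gene, from bcl2fastq 2.19, adapter removal, STAR 2.7.1 on GRCm38 and featureCounts. The strand setting, and whether reads with several matches were counted, are not given in the sources used here. Totals per library limit precision for keratins under 50 counts.

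Of 25700 IDs 25664 had a symbol and exon lengths in GENCODE M21. A gene entered the test (14791 did) where 50% or more of one genotype's libraries had 10 or more counts, and was fitted with edgeR 4.0.16 in R 4.3.3 (TMM factors, robust quasi-likelihood test, no covariate, Benjamini-Hochberg adjustment over all genes tested). Standard errors are from that fit, and log2 CPM used a prior count of 2. Exact permutation tests took all 35 splits of 4 against 3 libraries. Pups are the replicates. The verbs rose and fell were kept for an adjusted p under 0.05. The study's fold threshold was read as a log2 ratio.

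Values are given for the 6 members of each type with the highest level, those past the study's thresholds, and the other 4 that averaged 50 or more counts, and for each list the genes past the thresholds and the 2 with the smallest p. Krt42, Krt6b, Krt71 and others near the count threshold, Dsp, Lmnb1 and Trp63 were named after their values were seen. The members and gene lists were chosen with earlier results of these data known. Alternatives were RLE and upper-quartile factors, the likelihood-ratio test, DESeq2 1.42.0, limma-voom (limma 3.58.1), other filters, each library left out, marker covariates, a log2 ratio of at least 1 and, for levels, transcript length and library totals. The split by Y-linked genes and the epithelium covariate were chosen after the data were seen. The test was checked on simulated counts. Stretches of 1 read length from member transcripts were sought in all GENCODE M21 transcripts.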

Additional observations from a re-analysis of the deposited data

Results flagged for a closer look

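In 3 keratins 1 of the 4 K14;Nogo-A libraries stood far from the other 3, by Dixon's criterion on the gap as a share of the group's range. Krt27 had 49.7 CPM in K14;Nogo-A replicate 1 and 29.9 to 32.1 in the others. Krt28 had 24.0 CPM in the same library and 11.6 to 12.7 in the others. Krt71 had 2.25 CPM in K14;Nogo-A replicate 2 and 0.105 to 0.381 in the others. Chance marks about 1 in 20 groups in this way, and 30 were looked at.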

How the results depend on the processing

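No paired analysis was made. The paper calls the control pups littermates, but the sample titles do not say which pups shared a litter. At the study's thresholds 7 keratins were higher (2.02% of all genes tested; percentages below are such shares). The number was 2 at a log2 ratio of at least 1 (0.514%) and 1 with Y-linked expression as covariate (1.37%). It was 2 with the cornified markers (1.34%), 0 with the epithelium markers (0.967%, chosen after the data were seen) and 0 with the mesenchyme markers (2.05%). It lay between 0 and 13 when 1 library was left out (0.974% to 3.57%). The number lower, 0 (2.74%), was 2 with the mesenchyme markers (3.5%) and 0 to 2 when 1 library was left out (1.6% to 3.69%). Of all genes, 0.514% were lower at a log2 ratio of at least 1 and 2.44% with the Y-linked genes. With the cornified markers 2.59% were lower, and with the epithelium markers 1.75%. By limma-voom 2.45% were higher and 3.48% lower. The number at an adjusted p under 0.05, 0, was 2 by DESeq2, which gave none for 10 keratins, and 0 to 1 with 1 library left out. The partner genes past the thresholds (1) were 0 at a log2 ratio of at least 1, with the Y-linked genes and with the epithelium markers, 6 with the mesenchyme markers and 0 to 4 with 1 library left out. The other filament genes (2) were 0 at a log2 ratio of at least 1, with the cornified and with the mesenchyme markers, 1 with the epithelium markers and 1 to 4 with 1 library left out. The regulators (0) were 1 with the cornified markers and by limma-voom, 2 with the mesenchyme markers and 0 to 3 with 1 library left out. The RLE and upper-quartile factors, both other filters and the likelihood-ratio test moved none of these counts by over 1.5 times. Over all genes tested, 5 had an adjusted p under 0.05, all lower. By the likelihood-ratio test 89 were higher and 129 lower, by DESeq2 132 and 156, with no filter 1 and 20, without K14;Nogo-A replicate 1 97 and 124, and without wild-type replicate 9 45 and 48. The cause of these shifts was not tested.

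The mean of the mesenchyme markers does not overlap between genotypes, so the fit with it as covariate extrapolates. In it the sign turned in 30 of 37 genes, with log2 fold changes of -0.55 for Krt5, -0.46 for Krt14, -1.13 for Krt17, -0.02 for Krt8, -0.35 for Krt18, -1.11 for Krt15, -1.12 for Krt80, -0.56 for Krt75, -1.49 for Krt6a, -0.42 for Krt73, 0.55 for Krt82, -0.46 for Krt16, -0.37 for Krt36, -0.43 for Krt7, -0.23 for Krt42, -0.50 for Krt1, 2.07 for Krt222, -1.92 for Krt19, -0.44 for Krt24, -1.50 for Krt90, -4.71 for Krt6b, -4.97 for Krt71, -0.07 for Krt79, -0.25 for Krt84, -0.58 for Sfn, -0.13 for Pkp3, 0.40 for Nes, 0.12 for Bfsp1, 0.76 for Vim and -0.63 for Cebpa. With the epithelium markers it turned for Krt5 (-0.0098), Krt14 (-0.0053), Krt8 (-0.11), Krt18 (-0.21), Krt80 (-0.36), Krt1 (-0.13), Krt13 (-0.45), Krt6b (-1.14) and Krt84 (-0.76), with the Y-linked genes for Krt8 (-0.04), Krt18 (-0.10), Krt80 (-0.12) and Krt84 (-0.36), and with the cornified markers for Krt18 (-0.17), Krt80 (-0.05), Krt13 (-0.13) and Krt84 (-0.07). With 1 library left out it turned only in 7 keratins, with ranges of -0.19 to 0.20 for Krt27, -0.03 to 0.19 for Krt10, -0.03 to 0.18 for Krt8, -0.09 to 0.17 for Krt18, -0.22 to 0.36 for Krt80, -0.22 to 0.61 for Krt13 and -0.23 to 0.43 for Krt84. The summed levels of both types stayed within 1 SD under other lengths, library totals and left-out libraries. The level of Krt80 on its longest transcript was 31.7, against 19.4 on exon length.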
